A study of Homo sapiens with 3 samples.

Results

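In a pool of mesothelioma cells profiled for RNA and open chromatin together, 2217 of 11130 barcodes drew more than 20% of their RNA molecules from the mitochondrial genome. These high-mitochondrial barcodes were chosen by count alone: at least 1000 unique molecular identifiers (UMIs, each standing for 1 captured RNA molecule) in genes, at least 1000 counts in chromatin peaks, and over 20% of UMIs in the 13 genes whose name starts with MT-. They made up 19.9% of the barcodes past both minimums (exact binomial 95% interval 19.2 to 20.7%), and the other 8913 barcodes were at 20% or less. The mitochondrial share, the UMIs and the peak counts chose the members, so their values are a description. For 2152 members, as many barcodes at 20% or less were drawn within bins of like UMIs and peak counts. They are called matched barcodes here, and 65 members were left without a match.

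The pool held NCI-H226_CL3, a clone of the human mesothelioma line NCI-H226 that had been made resistant by growth in a TEAD inhibitor, starting at 0.25 µM and ending at 3 µM with increases of 0.1 to 0.5 µM, together with parental NCI-H226. Both are NF2 null, so every cell compared here lacks that upstream regulator of the Hippo pathway. Each line had been given the TEAD inhibitor GNE7883 or DMSO, and the 4 hashtags that marked the conditions were not among the features of the matrix used here. The line and the treatment of a barcode were thus unknown. All barcodes form 1 pooled sample without replicates, so conditions were not compared and no p-value was computed.

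Mitochondria carry a small circular genome that encodes core subunits of the respiratory chain, transcribed as long RNAs from both strands and cut into single messages. Most proteins of mitochondria, among them those that copy, transcribe and translate this genome, are made from nuclear genes. In single-cell work a high share of mitochondrial RNA is widely used to remove barcodes before analysis, because cells whose membrane has opened can lose cytosolic RNA while mitochondria stay inside, and because cell types also differ in mitochondrial content. Here whole cells were opened with 0.01% digitonin for 15 minutes, a detergent that permeabilises the outer membrane of cells.

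The promoters of 3 genes are printed. These genes belong to 2 gene groups that were lower among the members, the interferon-induced genes and the genes of G2 and mitosis. Each is the 250 bases before the gene start in RefSeq (GRCh38.p14), 5′ to 3′ on the strand of the gene. IFIT3 lies at chr10:89327747-89327996 on the plus strand, and capitals mark matches on either strand to GAAA, any 2 bases and GAAA again, the core of the interferon-stimulated response element. TOP2A, at chr17:40417897-40418146 on the minus strand, and ANLN, at chr7:36389612-36389861 on the plus strand, have in capitals the matches on either strand to TTTGAA, the core of the cell cycle genes homology region.
IFIT3: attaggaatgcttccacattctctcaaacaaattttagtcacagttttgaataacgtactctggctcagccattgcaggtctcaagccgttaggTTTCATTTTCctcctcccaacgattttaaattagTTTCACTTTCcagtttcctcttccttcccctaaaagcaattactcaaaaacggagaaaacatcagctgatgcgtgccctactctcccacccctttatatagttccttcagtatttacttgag
TOP2A: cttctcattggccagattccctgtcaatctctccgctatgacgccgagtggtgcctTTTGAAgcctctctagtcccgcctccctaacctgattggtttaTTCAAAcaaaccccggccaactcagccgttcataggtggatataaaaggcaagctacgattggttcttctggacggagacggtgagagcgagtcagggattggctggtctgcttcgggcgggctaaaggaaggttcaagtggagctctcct
ANLN: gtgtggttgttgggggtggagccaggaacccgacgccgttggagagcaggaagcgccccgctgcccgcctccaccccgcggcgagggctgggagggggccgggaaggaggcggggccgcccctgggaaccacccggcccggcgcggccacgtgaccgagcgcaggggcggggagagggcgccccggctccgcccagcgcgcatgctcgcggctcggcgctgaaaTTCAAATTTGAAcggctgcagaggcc
Each of these windows held 2 matches, and those of ANLN lie side by side. The interferon element stood in 14 of the 23 promoters of the interferon list that had an entry, against 3.07% of all 27305 promoters of this length. TTTGAA stood in 19 of the 32 promoters of the G2 and mitosis list that had an entry, against 13.6% of the 27305. A match is a run of letters and was not shown to be a binding site. The window of RSAD2, also of the interferon list, held no match to the interferon element and is not printed.

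High-mitochondrial barcodes were deeper, not shallower, than the rest in both readouts. Their median mitochondrial share was 22.9% (lowest 20.0%, highest 64.9%), against 13.9% in barcodes at 20% or less. Members had a median of 1792 UMIs, and the other barcodes 1524 UMIs. Outside the MT- genes the medians were closer, at 1365 UMIs in members and 1319 UMIs in the rest. The difference in total UMIs thus lay mostly in the mitochondrial UMIs, with medians of 436 in members and 211 in the rest. In chromatin, members had a median of 5607 peak counts, against 4034 in barcodes at 20% or less.

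The share of barcodes over the limit was higher at greater depth. It was 16.2% of barcodes with 1000 to under 1500 UMIs and 43.5% of the 294 barcodes with 5000 or more UMIs. By peak counts it was 16.1% from 1000 to under 2000 and 47.0% of the 570 barcodes with 16000 or more. The peak counts do not enter the mitochondrial share, while the UMIs do as its denominator. The minimum was on total UMIs, so all 129 barcodes with under 800 UMIs outside MT- genes were members. Members were 17.6% at 800 to under 1200 such UMIs, 15.8% at 1200 to under 1600 and 35.0% at 4000 or more. Over all 11130 barcodes of the pool, the rank correlation of the mitochondrial share was 0.22 with UMIs, 0.058 with UMIs outside MT- genes and 0.19 with peak counts, given as a description. Among 4836 barcodes that passed the UMI minimum only, 13.9% were over the limit. Barcodes with 1 to 100 UMIs and under 100 peak counts, taken as RNA free of cells, had 12.2% of their 791461 UMIs in MT- genes, below the median of both groups.

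**Figure D1:**
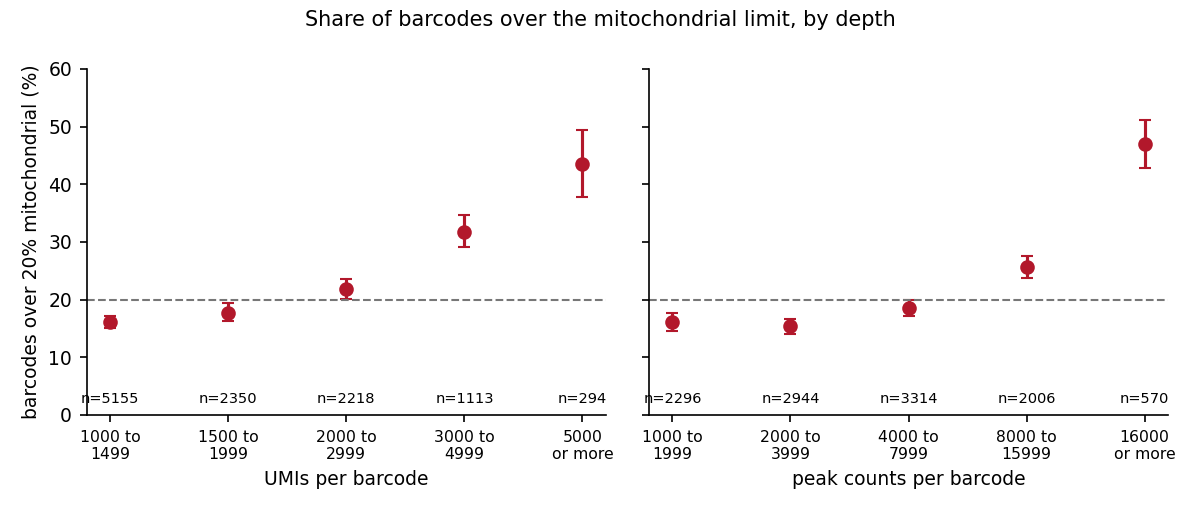
Share of barcodes over 20% mitochondrial UMIs (%, exact binomial 95% intervals) in classes of UMIs (left) and of peak counts (right), with the number of barcodes under each point. The dashed line is at the share over all barcodes, 19.9%, and the deepest classes stand at 43.5% and 47.0%.

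Members were not poorer in different genes at equal depth, and the groups were close in different peaks at matched depth. Thinned to 500 UMIs outside MT- genes, members held a median of 401 genes and barcodes at 20% or less 399 genes, with 1 member too shallow to thin. Unthinned, the medians were 927 genes in members and 899 genes in the rest. Thinned to 1000 peak counts, members held 910 peaks and the rest 876 peaks. Unthinned, members held 2903 peaks and the rest 2097 peaks. Matching brought median UMIs to 1768 in both groups and median peak counts to 5416.5 in members and 5473 in matched barcodes. By construction the matched barcodes then had more UMIs outside MT- genes, a median of 1524 against 1343.5 in members. In these matched groups, members held a median of 2802.5 peaks and matched barcodes 2829 peaks. Barcodes shared by more than 1 cell were not looked for, and values without the deepest 5% of barcodes are given where they differ.

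Within the mitochondrial RNA, the make-up was close between groups for 12 of the 13 genes and differed for MT-ND6. MT-CO2, a catalytic subunit of cytochrome c oxidase, was the most abundant, with 33.0% of mitochondrial UMIs in members and 33.1% in matched barcodes. MT-CYB, the cytochrome b of complex III, took 6.42% in members and 5.81% in matched barcodes, a ratio of 1.10 (95% interval 1.09 to 1.12). MT-ATP6 of the ATP synthase had a ratio of 1.08, MT-CO3 of cytochrome c oxidase 1.06 and MT-ND3 of complex I 1.05. At the other end, complex I subunits MT-ND4L, MT-ND5 and MT-ND4 had ratios of 0.878, 0.938 and 0.945. MT-ATP8 and MT-ATP6 overlap in the genome, as do MT-ND4L and MT-ND4, so their reads may have been divided between them.

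MT-ND6, the complex I subunit encoded on the opposite strand from the other protein genes of the mitochondrial genome, stood apart. It took 0.227% of mitochondrial UMIs in members (95% interval 0.218 to 0.236%) and 0.414% in matched barcodes (0.399 to 0.430%), a share 1.82-fold lower in members (1.73 to 1.92). Against barcodes at 10% or less in place of 20%, the ratio of the shares was 0.257, beside 0.548 here. It was 0.618 with minimums of 2000 UMIs and 2000 peak counts, 0.605 for members over 30% and 0.518 without the deepest 5%. Per barcode, members held 1.198 MT-ND6 UMIs and matched barcodes 1.317, a ratio of 0.910 (0.862 to 0.960). Matching was on total UMIs, so members had fewer UMIs outside MT- genes, a median of 1343.5 against 1524 in matched barcodes. The ratio per barcode was not adjusted for this. The other 12 genes were all higher per barcode in members, by ratios from 1.46 to 1.83, as the rule requires of their sum. MT-ND6 therefore did not share in the higher mitochondrial count that defines the members. In free RNA it took 1.78% of mitochondrial UMIs, above both groups. Whether reads were counted by strand is not stated in the sources used here, so MT-ND6 and RNA from the opposite strand of its neighbours cannot be told apart.

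**Figure D2:**
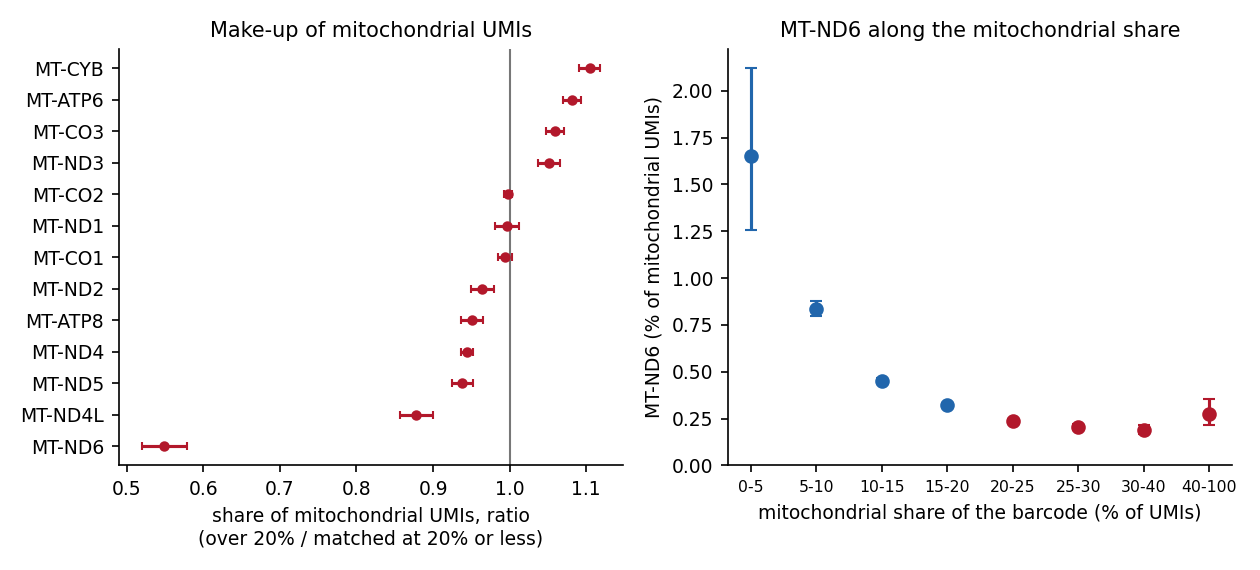
Left, ratio of each MT- gene's share of mitochondrial UMIs, members over matched barcodes, with 95% counting intervals and a line at 1. Right, MT-ND6 as a percent of mitochondrial UMIs in classes of the mitochondrial share, not matched for depth. Red marks members and blue marks barcodes at 20% or less, with 95% intervals. MT-ND6 is 1.65% below a share of 5% and 0.19% at a share of 30 to 40%.

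The same share of MT-ND6 was graded over the whole range of barcodes, in classes that were not matched for depth. It was 1.65% of mitochondrial UMIs at a mitochondrial share below 5%, 0.84% at 5 to 10%, 0.45% at 10 to 15% and 0.32% at 15 to 20%. Just past the limit, at 20 to 25%, it was 0.24%, then 0.21% at 25 to 30% and 0.19% at 30 to 40%. The 30 barcodes over 40% had 0.28%. No step appeared at 20%, where the values on either side, 0.24% inside and 0.32% outside, continued the gradient.

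Outside the MT- genes, levels are given in CPM, for which the UMIs left after those genes were removed were scaled to the same total in both groups. With a 95% counting interval that excludes 1, 81 of 7463 genes (1.09%) stood 1.5-fold or more higher in members and 36 (0.482%) stood 1.5-fold or more lower. Median-of-ratios scaling turned that balance, to 50 higher and 64 lower. Intervals that exclude 1 at any size were found for 1416 genes (19%), of which 711 (9.53%) were higher and 705 (9.45%) lower. Counting alone leaves at most 5% with these exact intervals. The median log2 ratio over all compared genes was 0.0019, with 3760 genes above a ratio of 1 and 3703 below. Most genes outside the mitochondrial genome thus stood at like levels in both groups, and differences were small. No interval was widened for the number of genes, and each holds counting error alone. Since 1 pool was measured, they say nothing of how far another culture would differ.

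Genes of G2 and mitosis, which are made in dividing cells, were lower in members throughout. All 36 compared genes of the 37 in the list were below a ratio of 1, with 20 intervals wholly below 1, against 9.45% of all compared genes, and none 1.5-fold lower. Their median log2 ratio was −0.32, against 0.0019 over all genes, and their summed level was 2768 CPM in members and 3433 CPM in matched barcodes, a ratio of 0.806 (0.786 to 0.828). TOP2A, a topoisomerase that untangles DNA before division, was at 416 CPM in members and 514 CPM in matched barcodes. ANLN, an actin-binding scaffold of the cleavage furrow, was at 227 CPM in members and 290 CPM in matched barcodes. TPX2, a spindle assembly factor, had the lowest ratio of the list, with 268 UMIs in members and 452 UMIs in matched barcodes, a ratio of 0.668 (0.572 to 0.779). HMMR, the cyclin CCNB2 and the kinetochore protein CENPF had ratios of 0.676, 0.684 and 0.697. The summed level in free RNA, 2144 CPM, was below both groups, and its part in the difference was not tested. Genes of S phase differed less, with 17 of 22 below 1, a median of −0.08 and 1098 CPM in members against 1170 CPM in matched barcodes. Without the deepest 5% of barcodes, the median of the G2 and mitosis genes was −0.23.

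Interferon-induced genes, which encode antiviral proteins, were also lower in members. Of 29 genes, 21 were compared, 20 lay below 1 and 3 were at least 1.5-fold lower, against 0.482% of all compared genes. Their median log2 ratio was −0.27, and the sum was 1246 CPM in members and 1490 CPM in matched barcodes, a ratio of 0.836 (0.804 to 0.870). RSAD2, the antiviral enzyme viperin, had 85 UMIs in members and 187 UMIs in matched barcodes, 1.95-fold lower in members (1.503 to 2.553). IFIT2 was 1.65-fold lower and IFIT3 1.52-fold lower, both RNA-associated proteins of the interferon-induced IFIT family. ISG15, a ubiquitin-like modifier, was at 99.7 CPM in members and 115 CPM in matched barcodes. CCL5, a chemokine outside this list that interferon can also induce, was at 27.4 CPM in members and 50.5 CPM in matched barcodes. The free RNA summed to 1458 CPM over the list, near the matched barcodes, and its part was not tested.

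Heat shock and mitochondrial chaperone genes were lower in members too. In the heat shock list 9 of 11 genes were below 1 with 7 intervals wholly below, against 9.45% of all compared genes, and none was 1.5-fold lower. The median was −0.25, with an interval (−0.37 to 0.037) that includes 0, and the sum was 3814 CPM in members and 4430 CPM in matched barcodes. HSP90AB1, a constitutive cytosolic chaperone, was at 887 CPM in members and 1135 CPM in matched barcodes, and HSP90AA1, its inducible relative, at 1152 CPM in members and 1366 CPM in matched barcodes. DNAJB1, a co-chaperone of HSP70, had a ratio of 0.672 (0.540 to 0.835). Among 17 compared genes for mitochondrial genome expression, protein import and chaperones, 16 were below 1. Only 4 had intervals wholly below 1, against 9.45% of all compared genes. The sum was 1922 CPM in members and 2165 CPM in matched barcodes, a ratio of 0.888 (0.860 to 0.916). HSPD1, the chaperonin of the mitochondrial matrix, was at 526 CPM in members and 627 CPM in matched barcodes. With HSPE1, at 354 CPM in members and 396 CPM in matched barcodes, it supplied a large part of that sum. TFAM, which packages mitochondrial DNA and starts its transcription, was at 61.7 CPM in members and 74.8 CPM in matched barcodes. The higher mitochondrial RNA of the members was thus not accompanied by higher messages for these nuclear factors.

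Nuclear-encoded respiratory chain subunits, the partners of the MT- gene products, stood level with the matched barcodes. Of 74 genes 34 were above and 40 below 1, and the sum was 15284 CPM in members and 15301 CPM in matched barcodes, a ratio of 0.999 (0.987 to 1.01). In classes of the mitochondrial share, without matching, the sum fell from 16081 CPM at 5 to 10% to 14334 CPM at 30 to 40%. ATP5F1E and COX7C, subunits of the ATP synthase and of cytochrome c oxidase, had ratios of 1.02 and 1.02. Mitochondrial ribosomal proteins were slightly lower, with 47 of 69 below 1 and a summed ratio of 0.955 (0.932 to 0.977). Among 12 genes of mitochondrial dynamics and mitophagy, 5 were above and 7 below 1, and SQSTM1, an autophagy receptor, was at 1400 CPM in members and 1272 CPM in matched barcodes. In the BCL2 family, which governs release of cytochrome c in apoptosis, 4 of 7 genes were above 1. BAX was at 102 CPM in members and 123 CPM in matched barcodes, and BID at 69.3 CPM in members and 60.2 CPM in matched barcodes.

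Levels of cytosolic messages are relative to the UMIs outside MT- genes, so a loss common to all of them could not show. Of 79 cytosolic ribosomal protein genes, 69 were below 1 and 44 had intervals wholly below 1, against 9.45% of all compared genes. The median log2 ratio was −0.05 and the sum was 147262 CPM in members and 153129 CPM in matched barcodes, a ratio of 0.962. In free RNA these genes summed to 270401 CPM, above both groups. The 25 cytosolic housekeeping genes had a summed ratio of 0.976, with EEF1A1, a translation elongation factor, at 6028 CPM in members and 6284 CPM in matched barcodes. GAPDH, a glycolytic enzyme, had a ratio of 0.994. Long noncoding RNAs kept in the nucleus summed to 63846 CPM in members and 63472 CPM in matched barcodes, a ratio of 1.01. Among them MALAT1, a nuclear speckle RNA, was at 56983 CPM in members and 57387 CPM in matched barcodes, and the sign of its log2 ratio (−0.01) turned under 4 alternatives. NEAT1, the scaffold of paraspeckles, was at 5734 CPM in members and 5009 CPM in matched barcodes, a ratio of 1.14 (1.12 to 1.17).

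Secreted and matrix genes, and some NF-kB targets, were higher in members. Of 24 compared secreted and matrix genes 18 were above 1 and 11 intervals lay wholly above, against 9.53% of all compared genes, with a median of 0.11, none 1.5-fold higher, and 7190 CPM in members against 6569 CPM in matched barcodes. SAA1, an acute-phase apolipoprotein, was at 793 CPM in members and 545 CPM in matched barcodes, a ratio of 1.45 (1.38 to 1.54). CHI3L1, a secreted chitinase-like glycoprotein, had a ratio of 1.47, and COL6A1, a collagen VI chain, one of 1.25. Free RNA held 961 CPM of SAA1, above both groups. Of 14 NF-kB and cytokine genes 9 were above 1 and 5 below. Intervals lay wholly above 1 for 2 genes and wholly below for 1, against 9.53% and 9.45% of all compared genes. Their median log2 ratio was 0.11, with an interval (−0.19 to 0.32) that includes 0. The sum was 2400 CPM in members and 2109 CPM in matched barcodes, a ratio of 1.14 (1.10 to 1.17). SOD2, the superoxide dismutase of the mitochondrial matrix, supplied most of that sum, at 1556 CPM in members and 1340 CPM in matched barcodes. ICAM1, an adhesion receptor, was at 185 CPM in members and 137 CPM in matched barcodes. The chemokine CCL20 went the other way, 1.51-fold lower in members with 57 UMIs, against 97 UMIs in matched barcodes.

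Giant genes at fragile sites, very long genes whose unspliced RNA is mostly intron, were above 1 for 11 of 13 genes, with a summed ratio of 1.12 (1.09 to 1.14). The sums were 3451 CPM in members and 3094 CPM in matched barcodes, and the median log2 ratio was 0.15 (0.012 to 0.36). RBFOX1, a splicing regulator, supplied most of the difference in the sums, at 861 CPM in members and 653 CPM in matched barcodes. The cholesterol synthesis list had a summed ratio of 1.07, with FDPS, which makes farnesyl diphosphate, at 407 CPM in members and 348 CPM in matched barcodes, and HMGCS1, an early enzyme of the pathway, at 387 CPM in members and 367 CPM in matched barcodes. For YAP/TEAD targets, genes whose transcription a TEAD inhibitor is meant to lower, 9 of 19 were above 1 and the summed ratio was 0.974 (0.957 to 0.991). CCDC80 was at 1306 CPM in members and 1374 CPM in matched barcodes, and CCN1, a matricellular protein, had a ratio of 0.943 (0.872 to 1.02). In the MAPK output list 6 of 7 genes were below 1, and ETV5, a transcription factor of the ETS family, was 1.59-fold lower with 49 UMIs in members, against 88 UMIs in matched barcodes. EPHA2, a receptor tyrosine kinase of that list, was the 1 gene above, with a ratio of 1.39. The lists of p53 targets, of ATF4 and the integrated stress response, of hypoxia and glycolysis and of immediate early genes had summed ratios of 0.95, 0.936, 0.990 and 0.971, with no gene past 1.5-fold.

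**Figure D3:**
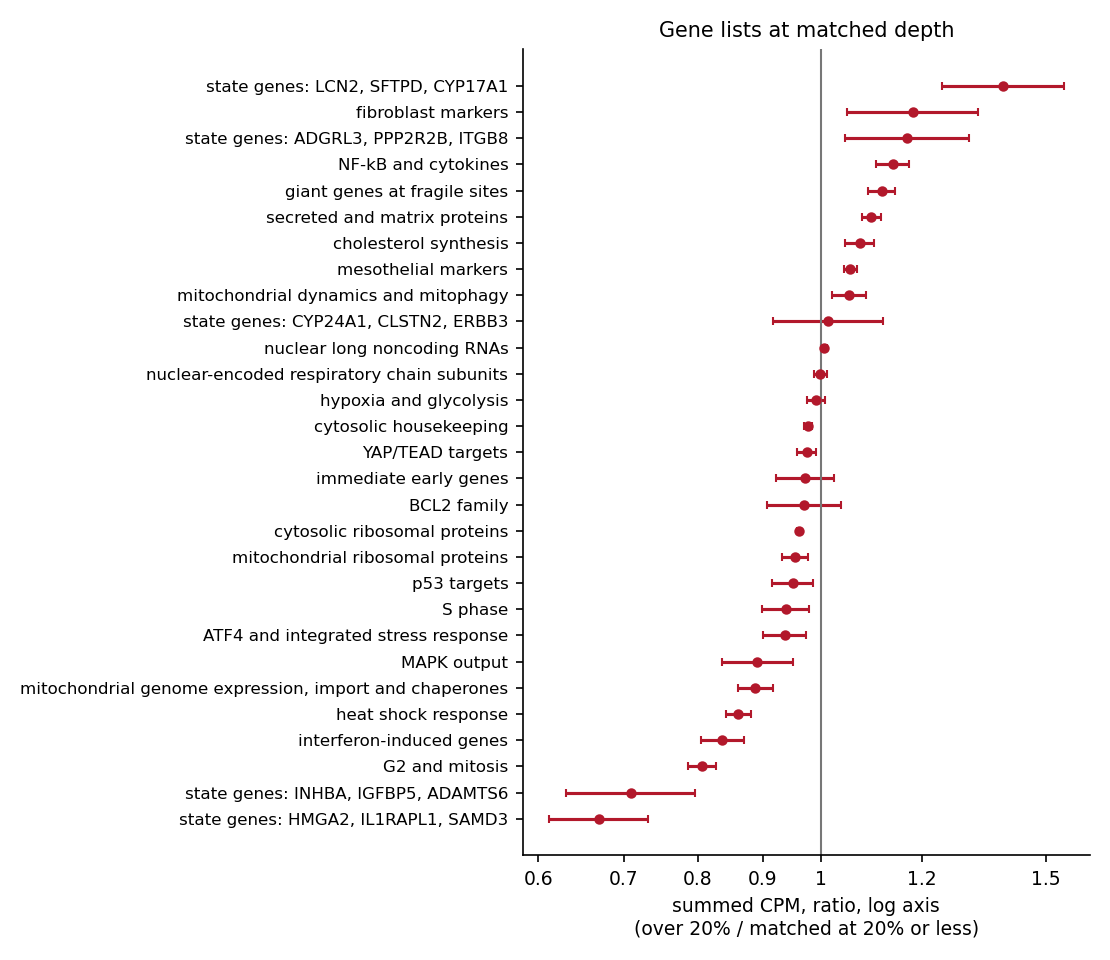
Ratio of the summed CPM of each gene list, members over matched barcodes, on a log axis with 95% counting intervals and a line at 1. Genes of G2 and mitosis (0.806) and interferon-induced genes (0.836) are low, nuclear-encoded respiratory chain subunits (0.999) sit at the line, and immune and endothelial markers, with hardly any UMIs, are not drawn.

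Genes that mark cell states in this pool, known from earlier results on the same data and so not independent evidence, were unevenly spread. HMGA2, a chromatin architectural protein, had 510 UMIs in members and 851 UMIs in matched barcodes, a ratio of 0.675 (0.604 to 0.755), and its companions IL1RAPL1 and SAMD3 had 0.720 and 0.607. INHBA, a subunit of activin, had a ratio of 0.778 and ADAMTS6, a matrix protease, 0.577. On the other side LCN2, an iron-scavenging lipocalin, was at 47.5 CPM in members and 32.9 CPM in matched barcodes, and SFTPD, a surfactant protein, at 132 CPM in members and 96.1 CPM in matched barcodes. State genes thus stood on both sides of 1 at the same depth. ADGRL3, an adhesion receptor, had a ratio of 1.25, which turned to a log2 ratio of −0.06 (−0.29 to 0.16) when barcodes were matched on UMIs outside MT- genes. The part of these states in the other differences was not tested.

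Both groups carried the markers of the labelled cell type. Mesothelial markers summed to 14135 CPM in members and 13409 CPM in matched barcodes, with 8 of 10 genes above 1. UPK3B was at 472 CPM in members and 327 CPM in matched barcodes, MSLN, the surface protein mesothelin, had a ratio of 1.31 and CALB2, the calcium-binding calretinin, one of 1.16. KRT5, a keratin, was 1.61-fold higher in members, with 90 UMIs against 63 UMIs in matched barcodes. Immune markers summed to 7.26 CPM in members and 8.42 CPM in matched barcodes, at the level of free RNA (7.19 CPM), with CD3E, LYZ and NKG7 at 0 UMIs in both groups. Endothelial markers summed to 29.0 CPM in members and 22.3 CPM in matched barcodes, nearly all of it KDR. The fibroblast list, at 163 CPM in members and 138 CPM in matched barcodes, was nearly all COL1A1.

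The 12 genes with the highest ratios and the 12 with the lowest were picked for their size, and most had few counts. SPATA13, a guanine nucleotide exchange factor, was highest, with 91 UMIs in members and 55 UMIs in matched barcodes, a ratio of 1.86 (1.32 to 2.66). It was followed by CLK2, a kinase of splicing factors, and KLK7, a secreted serine protease. OLR1, a receptor for oxidised lipoprotein, had the most UMIs of the 12, at 64.5 CPM in members and 35.9 CPM in matched barcodes, a ratio of 1.80 (1.45 to 2.22). The others were APLP1, LONRF2, SEMA4B, DPP10-AS1, CARNS1, STK38L, CREG1 and SLC6A8, with ratios from 1.75 to 1.69. Below RSAD2 and CCL5 came AC097487.1, SPATC1L, ADAMTS6, LBR, C1orf21, PPP1R8, GAS2L3, IFIT2, SAMD3 and MARS, from 1.79-fold to 1.65-fold lower in members. LBR is the lamin B receptor of the nuclear envelope, GAS2L3 links actin and microtubules, and MARS charges methionine tRNA.

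**Figure D4:**
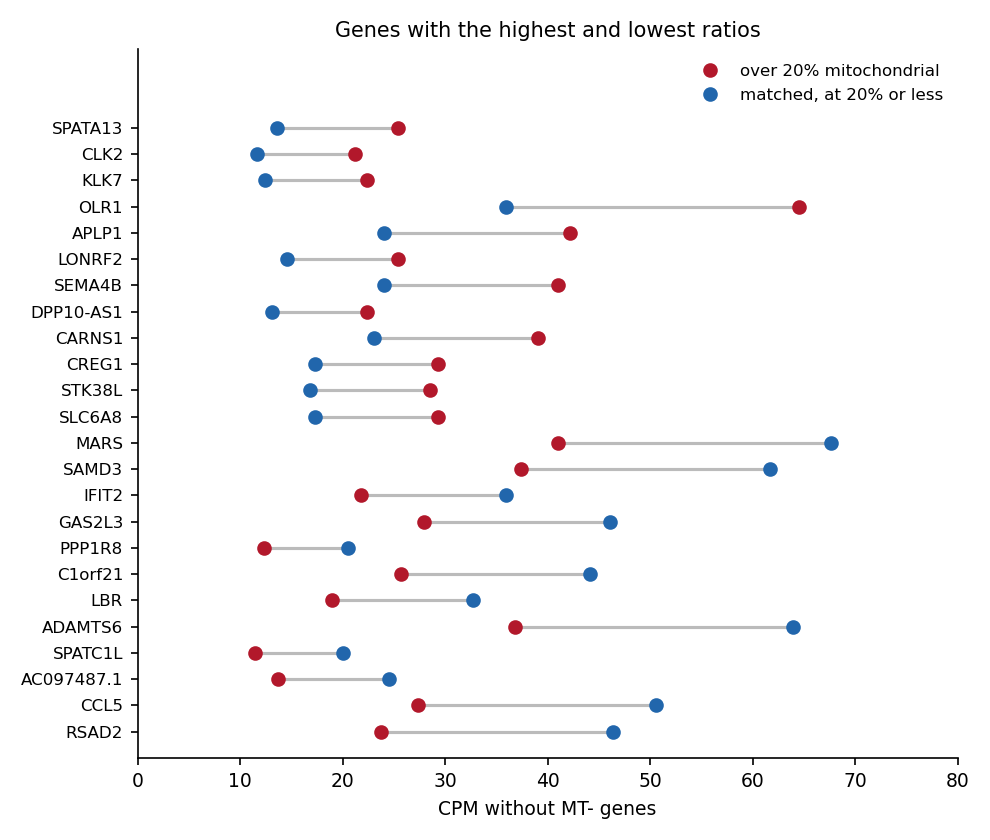
Level (CPM without MT- genes) of the 12 genes with the highest and the 12 with the lowest ratio, in members (red) and matched barcodes (blue), joined by a line. OLR1 stands at 64.5 CPM in members and 35.9 CPM in matched barcodes, and RSAD2 at 23.7 CPM in members and 46.3 CPM in matched barcodes.

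A pair of nuclear genes near-identical to mitochondrial ribosomal RNA were higher at higher mitochondrial shares and cannot be told apart from it. MTRNR2L12 was at 1092 CPM in members and 745 CPM in matched barcodes, and MTRNR2L8 at 319 CPM in members and 193 CPM in matched barcodes, a ratio of 1.66 (1.51 to 1.82). Both are left out of the MT- genes by their name, so their UMIs count here as nuclear. Without matching, MTRNR2L12 was at 826 CPM at a share of 15 to 20%, 982 CPM at 20 to 25% and 1618 CPM at 30 to 40%.

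Along the mitochondrial share, G2 and mitosis, interferon-induced and NF-kB genes were mostly graded from 5% to 40%. So were other lists, among them heat shock, cytosolic ribosomal proteins, nuclear-encoded respiratory chain subunits and, rising, secreted and matrix proteins. Heat shock genes fell from 4945 CPM at 5 to 10% to 3405 CPM at 30 to 40%. YAP/TEAD targets and nuclear long noncoding RNAs were not graded in this way. The classes were not matched for depth. Median UMIs were 1327 at 5 to 10% and 1826 at 25 to 30%, and median peak counts were 3357 and 6041. For G2 and mitosis the summed level was 2978 CPM (2672 to 3310) in the 69 barcodes below 5%, under the classes that follow, then 3419 CPM at 5 to 10%, 3287 CPM at 10 to 15%, 3184 CPM at 15 to 20%, 2867 CPM at 20 to 25%, 2660 CPM at 25 to 30% and 2435 CPM at 30 to 40%. Interferon-induced genes stood at 2017 CPM below 5%, 1615 CPM at 5 to 10%, 1453 CPM at 15 to 20%, 1249 CPM at 20 to 25%, level at 1251 CPM at 25 to 30%, and 1105 CPM at 30 to 40%. RSAD2 was at 72.4 CPM at 5 to 10%, 35.2 CPM at 15 to 20%, 27.0 CPM at 20 to 25% and 8.47 CPM at 30 to 40%. NF-kB and cytokine genes ran the other way, with 1990 CPM at 5 to 10%, 2248 CPM at 15 to 20%, 2346 CPM at 20 to 25% and 2778 CPM at 30 to 40%. The 30 barcodes over 40% left several of these gradients. They had 169958 CPM of cytosolic ribosomal protein genes, against 138514 CPM at 30 to 40%, and 1657 CPM of NF-kB and cytokine genes, with a median of only 748 UMIs outside MT- genes.

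**Figure D5:**
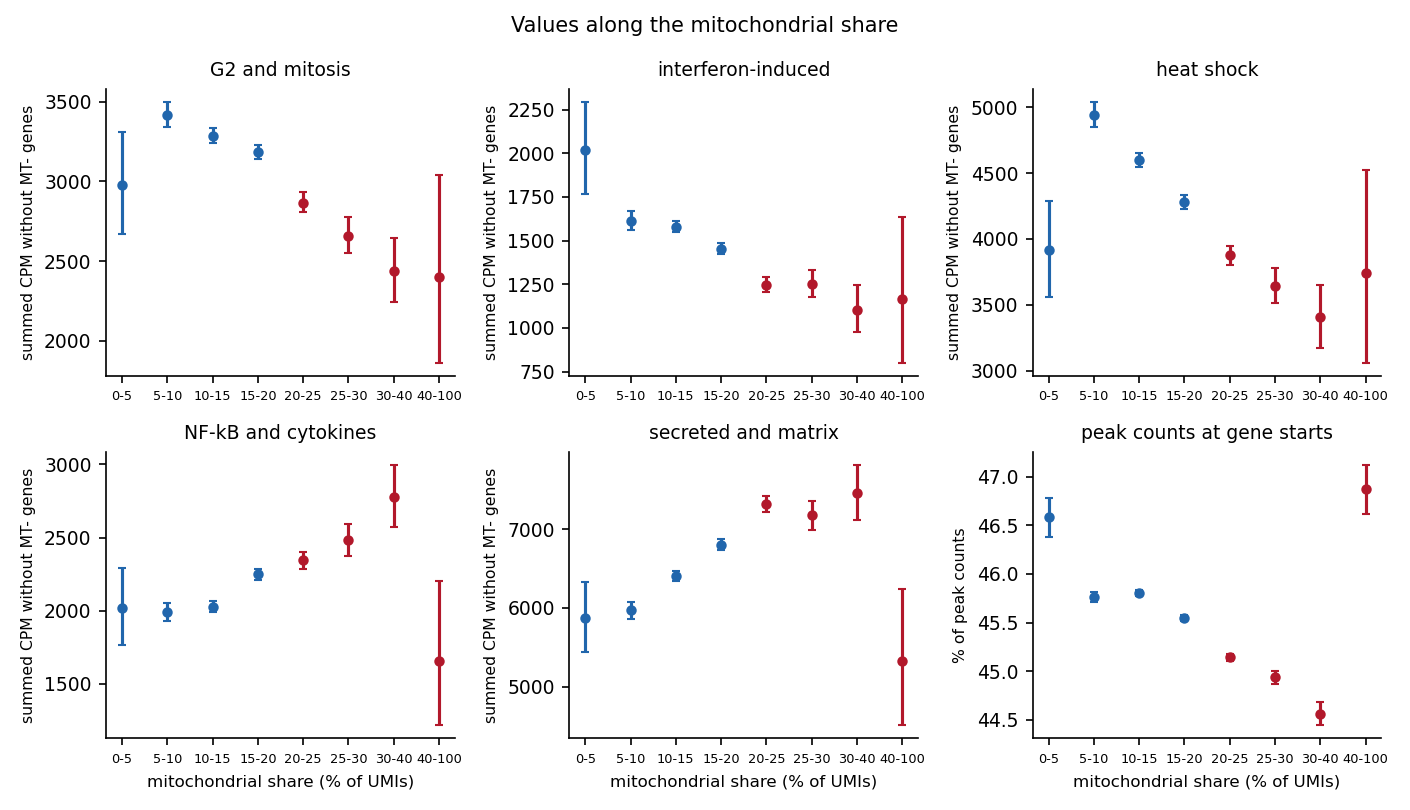
Summed CPM of 5 gene lists and the percent of peak counts at gene starts in classes of the mitochondrial share (red, members; blue, barcodes at 20% or less; 95% counting intervals; the vertical axes do not start at 0). The classes are not matched for depth. G2 and mitosis is at 3419 CPM at 5 to 10% and 2435 CPM at 30 to 40%. The 30 barcodes over 40% have wide intervals and depart from several gradients.

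Open chromatin is a readout the rule used only through its minimum. Of 75305 peaks compared, 1540 (2.05%) were at least 1.5-fold higher in members and 1251 (1.66%) at least 1.5-fold lower, with intervals that exclude 1. At any size 4585 peaks (6.09%) had such intervals, 2231 (2.96%) higher and 2354 (3.13%) lower. With these exact intervals, counting alone leaves at most 5%, and the share it leaves was not computed. The highest ratio was at chr1:93530993-93531848 (GRCh38), 53234 bases from the start of BCAR3, with 46 events in members and 13 events in matched barcodes. It was followed by peaks inside the listed start intervals of ZKSCAN1 and LUZP2 and peaks nearest to AL159990.2 and HECTD2, with ratios from 3.33 to 2.81. The lowest was at chr11:79418848-79419747, 21283 bases from the start of TENM4, with 13 events in members and 42 events in matched barcodes. The next were nearest to AC138123.1, DDR1-DT, GNGT2 and AC091059.1, from 2.93-fold to 2.79-fold lower in members. These peaks were picked for their size from counts that low. Gene starts are listed as intervals that can be long, so a peak inside one may lie far from its first base.

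Peaks within 1 kb of a listed gene start interval took 45.1% of peak counts in members and 45.6% in matched barcodes, a difference of −0.50 percentage points (−0.57 to −0.43). They were 54802 of the 215590 peaks, with 118 peaks for RBFOX1 alone, so many need not lie close to a single start. Per barcode the medians were 45.3% in members and 45.7% in matched barcodes, with quartiles at 43.6 and 47.0% in members and at 44.1 and 47.3% in matched barcodes, so the groups overlapped nearly wholly. Free DNA, from barcodes under 100 peak counts, had 47.7%. At the starts of G2 and mitosis genes the ratio of accessibility was 0.999 (0.968 to 1.03), beside 0.806 in RNA, and at interferon-induced genes 1.00 (0.954 to 1.05), beside 0.836 in RNA. TOP2A had 268 events at its start in members and 279 events in matched barcodes, and RSAD2 39 events in members and 28 events in matched barcodes. At the giant genes, whose listed starts span many peaks, the ratio was 1.06 (1.04 to 1.08), and SFTPD, high in RNA, had 162 events in members and 129 events in matched barcodes. By chromosome, the share of peak counts had ratios from 0.965 on chromosome 22 to 1.04 on chromosome 18.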

How the data were processed

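RNA and open chromatin were measured in 1 pool of cells with the 10x Genomics Multiome assay. The deposited matrix holds counts, whole numbers of UMIs per gene and of transposition counts per peak, for 36601 genes, 215590 peaks and 651860 barcodes, not normalized and not filtered to cells, and the authors' file headers name Cell Ranger ARC 2.0.0. It sums to 54494965 UMIs and 117898281 peak counts. The submitters' processing notes name GRCh38.p10, MACS2, ArchR 1.0.3 and Cell Ranger 2.0.0, with no roles given. Both libraries share barcodes by construction, and the matrix names no hashtag.

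Members and gene lists were chosen with earlier results of these data known. Barcodes at 20% or less were drawn 1 to 1 without replacement (seed 0) within bins of 0.1 in log10 total UMIs and 0.1 in log10 peak counts. UMIs outside MT- genes were summed per group and scaled to CPM. Genes entered the comparison at 100 UMIs or more in both groups together and 20 CPM in the higher group, and peaks at 50 events or more. As 87.9% of peak entries are even, every 2 counts were taken as 1 event. Ratios carry exact conditional binomial 95% intervals, shares Clopper-Pearson ones and sums Poisson ones, which cover counting error only. Doublets were not removed, and no doublet caller was run. The rule for named genes took the 12 highest and 12 lowest ratios with an interval that excludes 1, the MT- genes, and from each of 31 lists up to 4 members past 1.5-fold or, with none, the 2 with most UMIs; for peaks, the 5 highest and 5 lowest. Other genes were named after their values were seen. Genes of the Y chromosome and XIST were left out. The code was tested on simulated data. Python 3.11.15, numpy 2.4.6, scipy 1.17.1, pandas 2.3.3 and matplotlib 3.10.9 were used. Alternatives changed the matching, limits, minimums, scaling and filters.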

Additional observations from a re-analysis of the deposited data

How the results depend on the processing

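No paired analysis was made, since barcodes were matched as groups within bins and not in pairs. All barcodes form 1 pooled sample. For counts of genes or peaks past 1.5-fold, the cause of each change was not tested. Genes higher in members numbered 81 as reported, 303 with at least 10 UMIs and no CPM minimum, 214 against barcodes at 10% or less, 50 with median-of-ratios scaling, 30 for members over 30% and 53 without matching. Genes lower numbered 36 as reported, 177, 100 and 64 under the first 3 of these, 94 with 2000 UMIs and 2000 peak counts, 94 for members over 25%, 22 without matching and 60 without the deepest 5%. Peaks higher numbered 1540 as reported, 1024 with 2000 UMIs and 2000 peak counts, 3325 with at least 20 events, 471 against barcodes at 10% or less, 367 and 20 for members over 25% and over 30%, 2753 without matching and 891 without the deepest 5%. Peaks lower numbered 1251 as reported, 2354 with at least 20 events, 539 against barcodes at 10% or less, and 565 and 48 for members over 25% and over 30%. Only 165 barcodes a group were left for members over 30%, with 873 genes and 1650 peaks compared.

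The median log2 ratio of G2 and mitosis genes (−0.32) stayed below 0 under all alternatives and was −0.37 with median-of-ratios scaling, −0.47 and −0.75 for members over 25% and over 30%, −0.21 without matching and −0.23 without the deepest 5%. That of interferon-induced genes (−0.27) was −0.46 for members over 25%, with an interval of −0.78 to 0.081 that includes 0, and was not computed for members over 30%, where fewer than 3 of the genes could be compared. The difference at gene starts (−0.50 percentage points) was −0.43 against barcodes at 10% or less, −0.93 and −0.65 for members over 25% and over 30%, and −0.61 without matching. The log2 ratio changed sign for ADGRL3 (−0.065, as for the median of its state list, −0.065) when matched on UMIs outside MT- genes, for CDKN1A (−0.0026) with 2000 UMIs and 2000 peak counts, for SPARC (−0.10) with members over 30%, and for MALAT1, at 0.038 with 2000 UMIs and 2000 peak counts, 0.028 for members over 25%, 0.11 for members over 30% and 0.031 without matching. The cytosolic housekeeping median turned to 0.0070 against barcodes at 10% or less. Ratios of mitochondrial shares, recomputed after the data were seen, crossed 1 for MT-ATP8 (1.01) with 2000 UMIs and 2000 peak counts and for MT-ND2 (1.03) with members over 30%. Scaling moved the median of all genes by −0.02 (TMM) and −0.05 (median of ratios).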
